A study of Mus musculus with 48 samples.

Results

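The nuclear receptors Nr1h2 and Nr1h3, which encode the liver X receptors LXRβ and LXRα, were followed with 6 genes known as their targets in sterol efflux and membrane lipid handling: Abca1, Abcg1, Abcg5, Abcg8, Mylip and Lpcat3. These 8 genes were found by symbol among the 55414 rows of the count table, and all 8 were among the 15414 genes with enough reads to be tested. Liver RNA was sequenced from 48 C57BL/6 mice of the FCG model, 6 mice in each of 8 groups, with 1 library per mouse. In FCG mice the testis-determining gene Sry is deleted from the Y chromosome and carried as a transgene on an autosome, so that ovaries (Ov) or testes (Te) occur with XX or with XY chromosomes. The labels give the genotypes XX (XX Ov), XX;SryTg (XX Te), XY- (XY Ov) and XY-;SryTg (XY Te). Every mouse was fed a high-fat diet (HFD) with 60% of calories from fat, started at 15 to 17 weeks of age, and no group ate a control diet. In 4 groups the gonads were left in place (Intact), and the labels give 11 weeks of HFD. In the other 4 groups the gonads were removed at 75 days of age (GDX), and the labels give 15 weeks of HFD, although the methods of the study state other durations. GDX mice had kept their own gonads until then. Surgery, weeks of diet and any difference between the Intact and GDX libraries cannot be told apart in this design.

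LXRβ is present in most tissues, and LXRα is abundant in liver, macrophages, fat and intestine. Both are bound by oxysterols, pair with a retinoid X receptor (RXR) on DNA and turn on genes that remove sterol from the cell. ABCA1 passes cholesterol and phospholipid to apoA-I, ABCG1 passes cholesterol to HDL particles, and ABCG5 with ABCG8 forms the heterodimer that secretes sterols into bile. Mylip encodes a ubiquitin ligase that marks lipoprotein receptors for breakdown, and LPCAT3 puts polyunsaturated fatty acids into membrane phospholipids. In liver, LXRα also drives fatty acid synthesis through Srebf1. None of the 8 genes lies on a sex chromosome: in the Ensembl annotation on NCBIM37, Nr1h2 (ENSMUSG00000060601) is on chromosome 7, Nr1h3 (ENSMUSG00000002108) on 2, Abca1 (ENSMUSG00000015243) on 4 and Lpcat3 (ENSMUSG00000004270) on 6. Mylip (ENSMUSG00000038175) is on chromosome 13, and Abcg1 (ENSMUSG00000024030), Abcg5 (ENSMUSG00000040505) and Abcg8 (ENSMUSG00000024254) are on 17.

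Abcg5 and Abcg8 lie head to head and have little DNA between the nearest of their start sites, which is shown because the levels of the pair are compared here. In the RefSeq annotation on GRCm38.p6 the stretch has 109 bases at chr17:84683012-84683120, with Abcg5 leaving it on the minus strand and Abcg8 on the plus strand. It is written on the plus strand, and the capitals mark the closest match, on the minus strand, to a direct repeat with a 4-base gap, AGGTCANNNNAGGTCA, the arrangement at which LXR with RXR is known to bind.

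Abcg5 to Abcg8: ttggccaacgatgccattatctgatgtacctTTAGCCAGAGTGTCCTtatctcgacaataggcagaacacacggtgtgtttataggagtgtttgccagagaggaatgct

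The marked 16 bases hold 8 of the 12 fixed letters of the repeat, searched on both strands. The closest match among the members' promoter windows (250 bases before to 50 after the start) was in Abca1, with 9 of 12 letters on the strand opposite to the gene. It is shown because Abca1 is a member whose promoter is known for such an element, with capitals at the letters that match.

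Abca1: gGGTtActaccGGTCA

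The Abca1 window is chr4:53159846-53160145 on the same build. A match of 9 or more letters was present in 21.9% of all 32851 windows, and one of 8 or more in 76.9%, so a match this loose is common in any promoter. Windows were found for 7 of the 8 members, all but Abcg1. The box CCAAT, also searched on both strands, was in 37.4% of windows. Among the members it was in those of Lpcat3, Mylip and Abcg5 and in the Abcg8 window beside Abcg5. A second Abcg8 window, at another annotated start (chr17:84676052-84676351), did not hold it, nor did those of Nr1h2, Nr1h3 and Abca1.

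Reads on genes numbered 13071874 to 20045141 per mouse (median 16577748), and 3 reads, the limit below which a level cannot be told from 0, correspond to 0.150 to 0.230 CPM. All levels are CPM, counts scaled to library size after TMM normalisation. Fewer cells of a type and less RNA per cell cannot be told apart in whole liver. Xist lay at 166 to 1203 CPM in XX and 0.437 to 7.50 CPM in XY livers. Of the Y genes Ddx3y, Kdm5d, Uty and Eif2s3y, XX livers held up to 4.26 CPM, which is above the limit of 3 reads. XY livers held at least 14.9 CPM of each. By these ranges every library matched its chromosome label. Hepatocyte markers (8 genes) summed to 72836 to 163981 CPM over the Intact mice and 95010 to 133014 CPM over the GDX mice, so the tissue label held. Reads outside genes made up 3.47 to 6.20% in Intact and 8.52 to 11.3% in GDX libraries, with no overlap. A length measure, the mean log2 CPM of the 2771 longest minus that of the 2770 shortest genes, was -1.32 to 0.53 in Intact and 0.22 to 0.61 in GDX mice. It fell below -1 in 4 Intact mice, 1 XX Ov, 2 XY Ov and 1 XY Te. Within groups of Intact mice the share of reads outside genes moved with Nr1h2 (r = 0.716, rho = 0.755, permutation test, adjusted p = 0.0087 over 112 relations) and Nr1h3 (r = -0.649, rho = -0.672, adjusted p = 0.017). Within groups of GDX mice it moved with Abca1 (r = 0.598, rho = 0.535, adjusted p = 0.0207), and the length measure moved with Abca1 (r = 0.707, rho = 0.754, adjusted p = 0.00753) and Mylip (r = 0.720, rho = 0.714, adjusted p = 0.00128).

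The fewest reads on any member in any mouse were 78 for Abcg1 and 142 for Mylip, so no member was near the counting limit. Per kilobase of exon, over all 48 mice, Nr1h3 had the highest mean level at 43.5 ± 17.2 CPM per kb (SD, n = 48), against 6.84 ± 1.10 for Nr1h2. Abcg5 was at 29.9 ± 7.18, Lpcat3 at 26.2 ± 6.80, Abcg8 at 25.9 ± 6.60 and Abca1 at 19.7 ± 5.04 CPM per kb. Mylip at 5.27 ± 1.10 and Abcg1 at 5.22 ± 3.97 CPM per kb were lowest and close to each other. These means pool groups that differ. In XX GDX mice Nr1h3 (26.2 CPM per kb) was below Lpcat3 (33.9), Abcg5 (32.3) and Abcg8 (29.4), and in XY GDX mice Abcg1 (10.9) was above Nr1h2 (7.63) and Mylip (5.28). On the longest transcript in place of all exons Mylip (5.27) lay below Abcg1 (5.88).

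**Figure D1:**
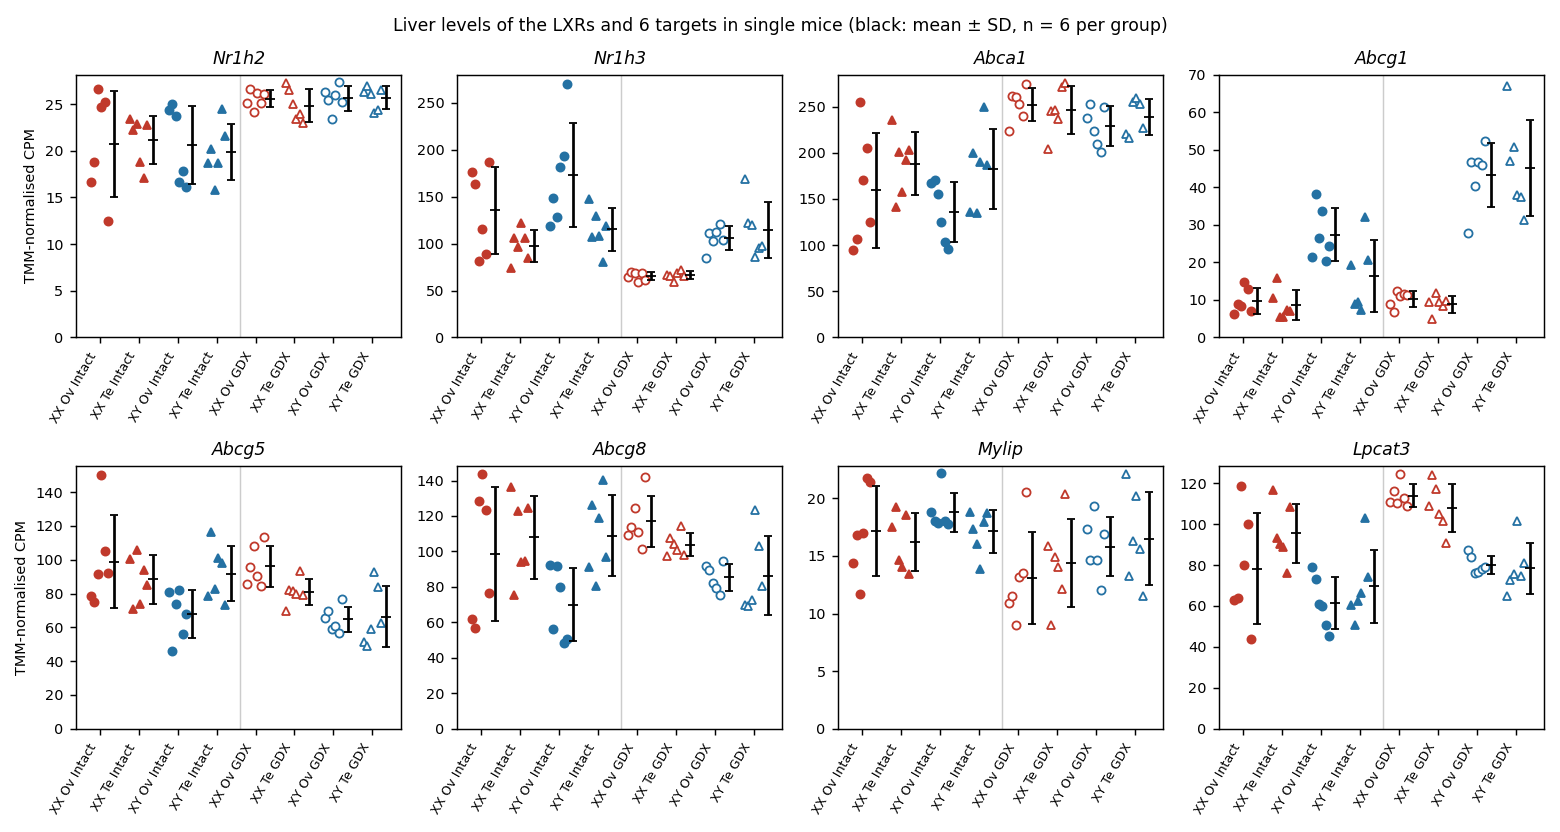
Levels of the 8 genes in each of 48 mice, in TMM-normalised CPM on linear axes from 0, by group (red XX, blue XY, circles Ov, triangles Te, filled Intact, open GDX); black marks give the mean ± SD of 6 mice. Abcg1 and Nr1h3 separate XX from XY after GDX, while Intact groups overlap for most genes.

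The chromosomal effect, XX against XY chromosomes with both gonads weighted equally, asks which genes follow the sex chromosomes. After GDX it was past the threshold for 5 of 8 members (adjusted p under 0.05, edgeR's quasi-likelihood test adjusted over all 15414 genes), where 34.3% of all tested genes were past it. Abcg1 and Nr1h3 were higher in XY mice, and Abcg5, Abcg8 and Lpcat3 were higher in XX mice. In Intact mice 2 of 8 members were past it, Abcg1 and Lpcat3, beside 10.7% of all genes. Over Intact and GDX mice together the members past it were the same 5 as after GDX, beside 36.7% of all genes. Within Ov GDX mice 4 members passed (all of these but Abcg8), beside 19.1% of genes, and within Te GDX mice 3 (Nr1h3, Abcg1 and Lpcat3), beside 19.4%. The median member difference after GDX was 0.03 log2 units, beside 0.08 over all genes.

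Abcg1 differed most between XX and XY mice. After GDX its lowest, median and highest levels were 6.72, 11.1 and 12.3 CPM in XX Ov mice and 4.94, 9.39 and 11.8 CPM in XX Te mice. In XY Ov mice they were 27.7, 46.5 and 52.4 CPM, and in XY Te mice 31.2, 42.5 and 67.0 CPM. All 12 XY mice were above all 12 XX mice, a separation that 8.06% of tested genes showed in either direction. The means were 9.59 ± 2.20 CPM in XX and 44.3 ± 10.4 CPM in XY mice (SD, n = 12 each), 4.63-fold higher in XY, with a log2 difference (XX minus XY) of -2.21 ± 0.20 (SE, adjusted p = 2.71e-12, edgeR). Within each former gonad the groups were also apart, by 4.22-fold in Ov and 5.08-fold in Te mice, and the share of all genes so separated was not counted.

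In Intact mice Abcg1 was 2.31-fold higher in XY than in XX mice (log2 difference -1.21 ± 0.20, SE, adjusted p = 1.56e-05, edgeR). XX Ov mice had 6.24, 8.65 and 14.9 CPM (lowest, median, highest) and XY Ov mice 20.3, 25.4 and 38.2 CPM, with no overlap. The share of all genes that separate these groups was not counted. XX Te mice had 5.36, 7.17 and 15.8 CPM and XY Te mice 7.19, 14.4 and 32.1 CPM. With testes in place these ranges overlapped. Abcg1 was 1.90-fold higher in XY Te than in XX Te Intact mice (log2 difference -0.93 ± 0.28, SE, adjusted p = 0.0729, edgeR), and neither it nor any other member was past the threshold, beside 2.10% of all genes. Between XX Ov and XY Ov Intact mice 2 members were past it, Abcg1 and Abcg5, beside 7.79% of all genes.

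The chromosomal effect on Abcg1 was larger after GDX than in Intact mice. The difference between the effects was -1.004 ± 0.28 log2 units (SE, adjusted p = 0.0437, edgeR), and Abcg1 was the single member of 8 past the threshold, beside 2.12% of all genes. The adjusted p is close to the threshold, and it passed in 26 of the 48 fits that left out 1 mouse each. For Nr1h3 the same difference was -0.45 ± 0.18 log2 units (adjusted p = 0.193, edgeR).

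Macrophage markers moved with Abcg1. Of 11 markers of Kupffer cells and macrophages, phagocytes of the liver, 10 were higher in XY than XX mice after GDX, with the largest differences for Marco (-3.39 log2 units, XX minus XY) and Adgre1 (-1.85), and Vsig4 alone not past the threshold. Their summed level was 227 to 581 CPM in XX GDX and 625 to 1956 CPM in XY GDX mice, with no overlap. In Intact mice 8 of 11 were higher in XY mice, and the sums, 336 to 1111 CPM in XX and 428 to 1532 CPM in XY mice, overlapped. Of 6 separate markers of recruited macrophages 2 were higher in XY after GDX, Itgax and Cx3cr1, 1 was higher in XX, Gpnmb, and 3 did not pass, with sums of 8.80 to 62.6 CPM in XX and 72.3 to 181 CPM in XY mice. Neutrophil markers also moved, with 6 of 6 higher in XY after GDX and sums of 2.56 to 8.03 CPM in XX against 15.5 to 116 CPM in XY mice. Lymphocyte markers were higher in XY for 6 of 6 after GDX (1.91 to 6.57 against 4.07 to 11.4 CPM) and endothelial markers for 2 of 7 (153 to 340.2 against 199 to 412 CPM), a share below the 34.3% of all genes. No marker was at 0 in every mouse.

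Within groups, Abcg1 followed the summed markers of several cell types, macrophages most closely after GDX. After subtracting group means on the log2 scale, Pearson's r was 0.849 and Spearman's rho 0.762 over the 24 GDX mice (permutation p = 1e-05, the smallest that 100000 resamples can give, adjusted p = 0.000187 over 112 relations). Without the 2 mice farthest from the median of the marker sum r was 0.777. In the 24 Intact mice r was 0.596 (permutation test, adjusted p = 0.0512). Abcg1 also followed the neutrophil sum in GDX mice (r = 0.656, rho = 0.60, permutation test, adjusted p = 0.00859, r = 0.519 without 2 mice) and the endothelial sum in Intact mice (r = 0.765, rho = 0.750, adjusted p = 0.00252, r = 0.717 without 2 mice). The part of these cell types in the XX to XY difference of Abcg1 was not tested.

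**Figure D2:**
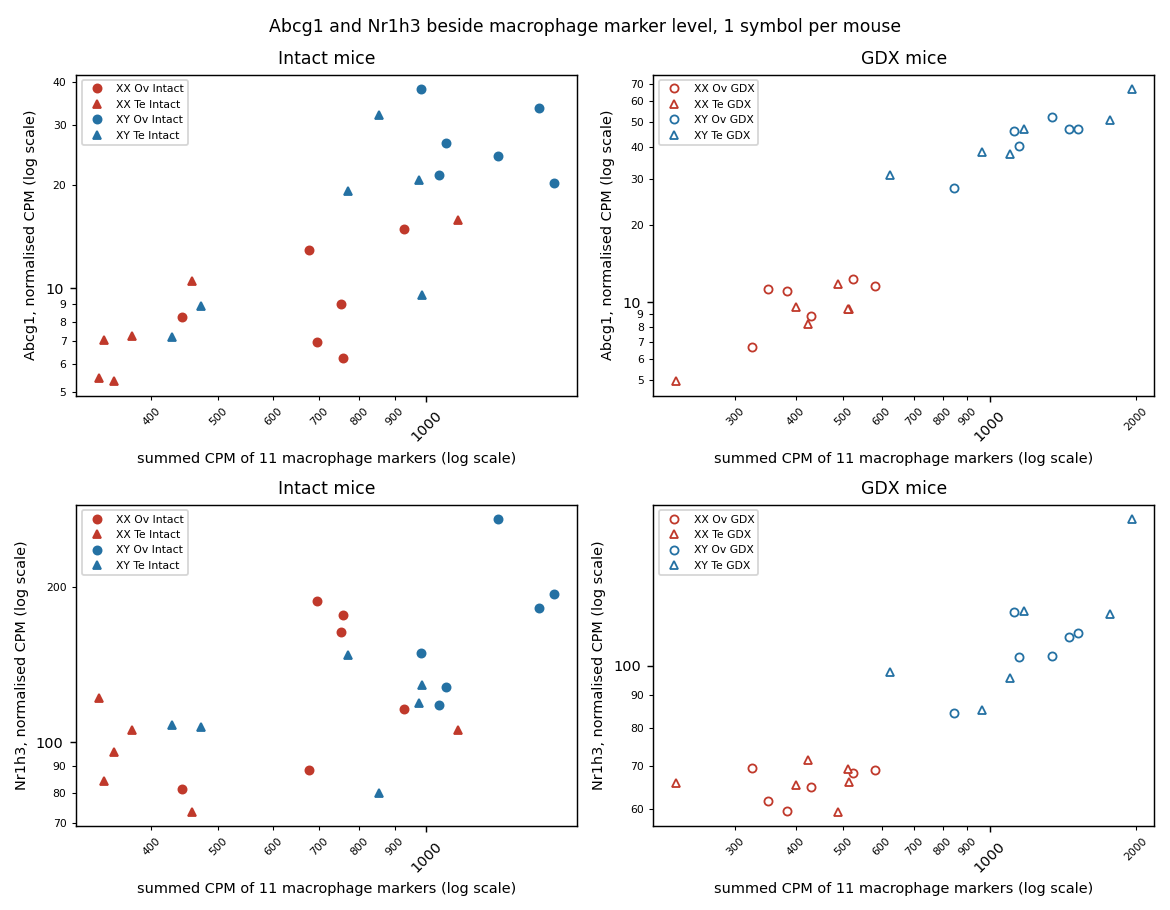
Abcg1 (top) and Nr1h3 (bottom) in CPM against the summed CPM of 11 macrophage markers, Intact mice left and GDX mice right, 1 point per mouse, both axes logarithmic (red XX, blue XY, circles Ov, triangles Te, filled Intact, open GDX). XX GDX mice lie at 227 to 581 CPM of marker sum with low Abcg1, and XY GDX mice at 625 to 1956 CPM with high Abcg1.

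Nr1h3, the LXRα gene, was also higher in XY than XX livers after GDX. XX Ov GDX mice had 59.6, 66.5 and 69.5 CPM (lowest, median, highest) and XX Te GDX mice 59.5, 66.0 and 71.4 CPM. XY Ov GDX mice had 84.4, 107 and 121 CPM and XY Te GDX mice 85.3, 109 and 168 CPM. Every XX mouse was below every XY mouse, a separation that 8.06% of tested genes showed in either direction, and the XX mice varied little. The means were 65.9 ± 3.91 and 110.4 ± 22.3 CPM (SD, n = 12 each), 1.67-fold higher in XY mice (log2 difference -0.74 ± 0.13, SE, adjusted p = 6.52e-06, edgeR). In Intact mice the log2 difference was -0.29 ± 0.13 (SE, adjusted p = 0.132, edgeR) with overlapping ranges. The correlation of Nr1h3 with the macrophage sum within GDX groups was r = 0.581 (permutation test, adjusted p = 0.0742), and within Intact groups it was 0.279. Within Intact groups Nr1h3 followed the neutrophil sum (r = 0.595, adjusted p = 0.013) and was opposed to the endothelial sum (r = -0.582, adjusted p = 0.0131, permutation test). Within GDX groups neither relation was past the threshold. Also past it in Intact mice were Abca1 (r = -0.642) and Abcg8 (-0.573) with neutrophil markers, and Nr1h2 (0.549) and Lpcat3 (0.601) with endothelial markers. Mylip followed the macrophage sum there (r = 0.526, rho = 0.450, permutation test, adjusted p = 0.0332). Nr1h3, Abca1, Abcg8, Nr1h2 and Lpcat3 also followed the length measure within Intact groups. Their relations to the markers were not computed with that measure removed.

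Lpcat3 had the opposite direction. After GDX its levels were 109.0, 112 and 124 CPM in XX Ov and 90.8, 107 and 124 CPM in XX Te mice (lowest, median, highest), against 76.0, 78.4 and 87.2 CPM in XY Ov and 64.9, 75.1 and 101 CPM in XY Te mice. In the Ov groups the ranges did not overlap, and 11 of 12 XX mice were above all 12 XY mice. The shares of all genes with such separations were not counted. The difference was 1.40-fold after GDX (0.49 ± 0.11 log2 units, SE, adjusted p = 0.0005, edgeR) and 1.32-fold in Intact mice (0.40 ± 0.11, adjusted p = 0.0115, edgeR). The Intact call of Lpcat3 held in each of the 48 fits that left out 1 mouse and in 8 of 11 other alternatives. It was lost under library totals, with the compared arms alone and at adjusted p under 0.01. The exons of Lpcat3 overlap those of Emg1 on the other strand by 38 bases in the Ensembl annotation on NCBIM37, those of Nr1h3 overlap Gm13783 by 34 bases on the same strand, and the strand setting of the counting is not given in the sources used here.

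Abcg5 and Abcg8, the bile sterol transporter, were both higher in XX mice after GDX. The lowest, median and highest levels of Abcg5 were 84.3, 92.9 and 114 CPM in XX Ov mice, 69.4, 80.7 and 93.4 CPM in XX Te mice, 56.7, 63.0 and 76.9 CPM in XY Ov mice, and 49.1, 60.9 and 92.7 CPM in XY Te mice. For Abcg8 the XX Ov mice had 101, 112 and 142 CPM, the XX Te mice 97.5, 102 and 114 CPM, the XY Ov mice 75.5, 85.8 and 94.5 CPM, and the XY Te mice 69.3, 76.5 and 123 CPM. XX Ov mice were above XY Ov mice without overlap for both, while the Te groups overlapped. How many of all genes separate the Ov groups in this way was not counted. Abcg5 was 1.35-fold higher in XX mice (0.43 ± 0.11 log2 units, SE, adjusted p = 0.00163, edgeR) and Abcg8 1.28-fold (0.36 ± 0.13, adjusted p = 0.0318, edgeR). The Abcg8 call held in 40 of the 48 fits that left out 1 mouse and in 6 of 11 other alternatives. That of Abcg5 held in each of the 48 and in 10 of 11. In Intact mice the differences were 0.24 ± 0.11 for Abcg5 and 0.24 ± 0.13 for Abcg8 (adjusted p = 0.149 and 0.272, edgeR). Their exons overlap by 82 bases on opposite strands in the NCBIM37 annotation. The deposited counts keep ambiguous reads on a separate summary line, and how reads of this overlap were assigned was not tested.

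When CPM was computed from library totals in place of TMM, the XX to XY differences after GDX of Abcg5 (0.25 log2 units, adjusted p = 0.132), Abcg8 (0.18, adjusted p = 0.442) and Lpcat3 (0.31, adjusted p = 0.0963, edgeR) were no longer past the threshold. Under that scaling the median of all genes moved from 0.08 to -0.10 log2 units and the share of calls that were higher in XX mice from 56.8% to 18.8%. Abcg1 and Nr1h3 stayed past it under both scalings. Mylip, not past it under TMM, was past it under library totals as higher in XY mice (-0.42 log2 units, adjusted p = 0.0199, edgeR).

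Under TMM, Abca1, Nr1h2 and Mylip were not past the threshold between XX and XY mice. After GDX the differences were 0.09 log2 units for Abca1 (2 SE interval -0.14 to 0.33), -0.03 for Nr1h2 (-0.20 to 0.15) and -0.23 for Mylip (-0.47 to 0.01). Nr1h2 had the narrowest interval of these.

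**Figure D3:**
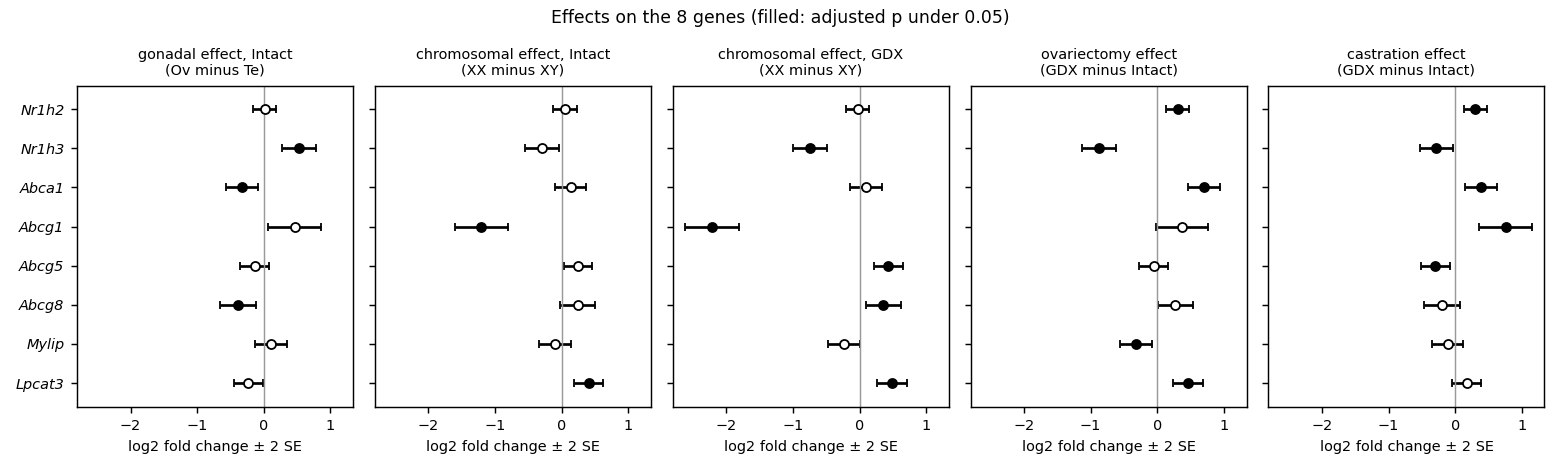
Log2 fold changes of the 8 genes under 5 effects (gonadal in Intact mice, chromosomal in Intact and in GDX mice, ovariectomy, castration), bars ± 2 SE from the edgeR fit over 48 mice, filled where adjusted p is under 0.05. Abcg1 lies farthest from 0 for the chromosomal effect and Nr1h3 for the ovariectomy effect.

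The gonadal effect, Ov against Te mice with gonads in place, asks what follows the gonads. It was past the threshold for 3 of 8 members, beside 25.3% of all tested genes. Nr1h3 was higher with ovaries, and Abca1 and Abcg8 were higher with testes. The median member difference was -0.06 log2 units and that of all genes 0.04. Under library totals the share of calls that were higher with ovaries moved from 55.6% to 68.0%, and Nr1h3 was the only member past the threshold.

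The lowest, median and highest levels of Nr1h3 were 81.4, 139.8 and 187 CPM in XX Ov and 118, 165 and 269.6 CPM in XY Ov mice. With testes they were 73.5, 101 and 122 CPM in XX Te and 79.9, 113 and 148 CPM in XY Te mice. The means were 154 ± 52.6 CPM with ovaries and 106 ± 21.3 CPM with testes (SD, n = 12 each), 1.44-fold higher with ovaries, with overlap (0.53 ± 0.13 log2 units, SE, adjusted p = 0.00178, edgeR). The call held in each of the 48 fits that left out 1 mouse.

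Abca1, the ABC transporter that loads apoA-I, ran from 94.8 to 255 CPM (median 140.3) with ovaries and from 135 to 250.01 CPM (median 191) with testes. Its mean was 1.26-fold higher with testes (-0.33 ± 0.12 log2 units, Ov minus Te, SE, adjusted p = 0.0351, edgeR), and the ranges overlapped. Abcg8 ran from 48.3 to 144 CPM (median 78.3) with ovaries and from 75.5 to 140.2 CPM (median 108) with testes. Its mean was 1.31-fold higher with testes (-0.39 ± 0.13, adjusted p = 0.0285, edgeR). Each of these last calls was lost when some single mice were left out, in 10 of 48 fits for Abca1 and 6 of 48 for Abcg8.

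Within XY mice Abcg5 and Abcg8 were both lower in XY Ov than in XY Te Intact mice, by -0.44 and -0.64 log2 units (adjusted p = 0.0453 and 0.016, edgeR), beside 15.5% of all genes past the threshold. Nr1h3 was higher in the XY Ov mice, by 0.59. Between XX Ov and XX Te Intact mice no member was past it, beside 5.82% of all genes. The gonadal effect itself was not shown to depend on the chromosomes: no gene of the 15414 had an adjusted p under 0.05 for that interaction by edgeR, and 989 genes and 1 member, Abcg5, had an unadjusted p under 0.05. DESeq2 called 2 genes and no member. The Abcg5 value was 0.60 ± 0.22 log2 units (adjusted p = 0.647, edgeR).

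Markers of other cell types and the length measure also differed between the gonads. With ovaries 7 of 11 macrophage markers were higher, among them C1qb (0.83 log2 units) and Vsig4 (0.81), with sums of 444 to 1532 CPM against 336 to 1111 CPM with testes. Lymphocyte markers were higher with ovaries for 4 of 6 (median 1.29 log2 units, sums of 3.03 to 20.7 CPM against 1.47 to 8.84 CPM), and Cfd, the single adipocyte marker tested, was lower (-3.86). The length measure was -0.578 ± 0.543 with ovaries and -0.295 ± 0.449 with testes (SD, n = 12 each). In Intact mice 5 members followed that measure within groups: Nr1h3 with r = -0.921, Abca1 with 0.913, Nr1h2 with 0.890, Lpcat3 with 0.889 and Abcg8 with 0.747. With the measure as a covariate, Nr1h3 (0.29 log2 units, adjusted p = 0.0063) and Abca1 (-0.17, adjusted p = 0.0313) stayed past the threshold, Abcg8 did not (-0.23, adjusted p = 0.0881), and Abcg1 passed as higher with ovaries (0.63, adjusted p = 0.0164, edgeR). Without the 4 Intact mice below -1 no member was past it, with Nr1h3 at 0.34 (adjusted p = 0.0668, edgeR).

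**Figure D4:**
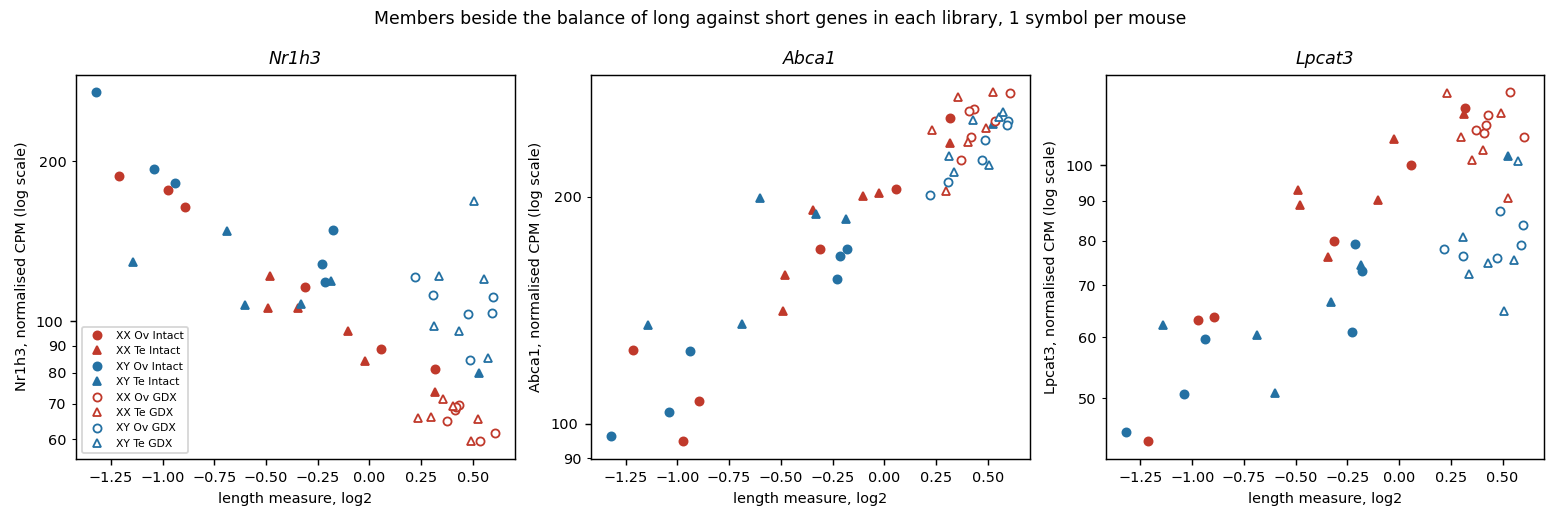
Levels of Nr1h3, Abca1 and Lpcat3 in CPM on a log axis against the per-mouse length measure (mean log2 CPM of the longest minus that of the shortest genes), 1 point per mouse (red XX, blue XY, circles Ov, triangles Te, filled Intact, open GDX). Intact mice spread from -1.32 to 0.53, with Nr1h3 falling and Abca1 and Lpcat3 rising along the measure, and GDX mice sit between 0.22 and 0.61.

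After GDX the former gonad made no difference past the threshold to any member. The largest was 0.11 log2 units, for Abcg5, and 14 of 15414 genes (0.0908%) were past it by edgeR, against 25 by DESeq2, which called no member. At an unadjusted p under 0.05 there were 475 genes and 0 members. The 2 SE intervals were widest for Abcg1, -0.31 to 0.46 log2 units, and narrowest for Nr1h2, -0.15 to 0.19.

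The ovariectomy effect (GDX against Intact in Ov mice) and the castration effect (the same in Te mice) were each past the threshold for 5 of 8 members, beside 69.4% and 63.3% of all genes. A share of 5 in 8 is close to these backgrounds. These effects share their Intact mice with the gonadal effect, so the values are set side by side and not counted as separate evidence. Under library totals the share of calls that were higher after the operation moved from 51.9% to 66.1% for ovariectomy and from 52.7% to 69.4% for castration. Nr1h2 and Abca1 were higher after either operation, and Nr1h3 was lower after ovariectomy and, less firmly, after castration. Lpcat3 was higher and Mylip lower in the ovariectomy effect, and Abcg1 was higher and Abcg5 lower in the castration effect.

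In Ov mice Nr1h3 went from a median of 156 CPM (81.4 to 269.6) in Intact to 76.9 CPM (59.6 to 121) in GDX mice. It fell 1.84-fold (-0.88 ± 0.13 log2 units, SE, adjusted p = 8.56e-08, edgeR), and among XX Ov mice every GDX mouse was below every Intact mouse. In Te mice the median was 107 CPM (73.5 to 148) in Intact and 78.4 CPM (59.5 to 168) in GDX mice, with a change of -0.28 ± 0.13 log2 units (adjusted p = 0.0469, edgeR). This castration call held its direction and side of the threshold in 1 of 11 alternatives other than leaving out mice, and reversed in 1. The effects of castration and ovariectomy on Nr1h3 differed by 0.60 ± 0.18 log2 units (adjusted p = 0.0363, edgeR), and no other of the 8 was past the threshold for that difference, beside 5.60% of all genes. The call held in 36 of 48 fits that left out 1 mouse each. Among XX Te mice the Nr1h3 ranges, 73.5 to 122 CPM in Intact and 59.5 to 71.4 CPM in GDX mice, did not overlap (-0.56 log2 units, adjusted p = 0.0126). Among XY Te mice, at 79.9 to 148 CPM in Intact and 85.3 to 168 CPM in GDX mice, the difference was -0.0038 log2 units (adjusted p = 0.987, edgeR).

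Abca1 went the other way. In Ov mice it was 94.8 to 255 CPM in Intact and 201 to 275 CPM in GDX mice, 1.63-fold higher after ovariectomy (0.70 ± 0.12 log2 units, SE, adjusted p = 1.81e-06, edgeR), and among XY Ov mice the ranges did not overlap. In Te mice it was 135 to 250.01 CPM in Intact and 204 to 276 CPM in GDX mice, 1.31-fold higher after castration (0.39 ± 0.12, adjusted p = 0.00452, edgeR). Nr1h2, with 12.5 to 26.7 CPM in Intact and 23.0 to 27.4 CPM in GDX mice, was 1.24-fold higher after ovariectomy and 1.23-fold after castration (adjusted p = 0.00191 and 0.00286, edgeR).

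Lpcat3 was 1.38-fold higher after ovariectomy (0.46 ± 0.11 log2 units, adjusted p = 0.000327, edgeR), from a median of 63.4 CPM (44.0 to 119) to 98.1 CPM (76.0 to 124). Mylip, the ubiquitin ligase gene, fell by 0.32 log2 units after ovariectomy (adjusted p = 0.0163, edgeR), from a median of 18.0 CPM (11.7 to 22.2) to 14.1 CPM (9.05 to 20.5). Both pairs of ranges overlapped.

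Abcg1 was 1.69-fold higher after castration (0.76 ± 0.20 log2 units, SE, adjusted p = 0.00103, edgeR), and 2.76-fold higher in the XY Te mice alone (adjusted p = 2.63e-05, edgeR). In XY Te mice the levels were 7.19, 14.4 and 32.1 CPM in Intact and 31.2, 42.5 and 67.0 CPM in GDX mice, while XX Te mice had 5.36 to 15.8 CPM and 4.94 to 11.8 CPM, and a difference between these changes was not tested. The macrophage marker sum was 428, 813 and 984 CPM (lowest, median, highest) in XY Te Intact and 625, 1138 and 1956 CPM in XY Te GDX mice, with overlap. The recruited macrophage sum was 23.2, 44.0 and 68.5 against 73.7, 106 and 181 CPM. After castration 3 of 11 macrophage and 4 of 6 recruited macrophage markers were higher and 1 of each lower. Beside them 63.3% of all genes were past the threshold for castration in either direction, and the part of the markers was not tested. In XY Ov mice Abcg1 was 1.58-fold higher (adjusted p = 0.0322, edgeR). Abcg5 fell by 0.30 log2 units after castration (adjusted p = 0.0162, edgeR), in XY Te mice from a median of 90.5 CPM (73.5 to 116) to 60.9 CPM (49.1 to 92.7). The single-group comparisons had backgrounds of 56.7% for XY Te, 37.1% for XX Te, 59.4% for XY Ov and 55.1% for XX Ov mice. These are shares of all genes past the threshold, and shares without overlap of ranges were not counted.

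GDX and Intact mice also differed in the length measure. With it as a covariate no member was past the threshold for the ovariectomy effect, Nr1h3 being at -0.10 log2 units (adjusted p = 0.584) and Abca1 at 0.03 (adjusted p = 0.861, edgeR). For castration, Nr1h3 turned to 0.23 (adjusted p = 0.0453), Abca1 to -0.10 (adjusted p = 0.271) and Nr1h2 to -0.02 (adjusted p = 0.827, edgeR). Surgery, weeks of diet and library properties cannot be told apart here, so none of these values belongs to the operation alone. Between XX and XY mice the measure after GDX was 0.424 ± 0.105 in XX GDX and 0.449 ± 0.128 in XY GDX mice (SD, n = 12 each). With the covariate 2 members in Intact and 5 in GDX mice were past the threshold for the chromosomal effect.

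Ordered by group mean, Abcg1 ran from XY Te GDX and XY Ov GDX through XY Ov Intact and XY Te Intact to the 4 XX groups, with XX Te Intact lowest. Nr1h3 ran from XY Ov Intact and XX Ov Intact through XY Te Intact, XY Te GDX, XY Ov GDX and XX Te Intact to XX Te GDX and XX Ov GDX. Lpcat3 had XX Ov GDX and XX Te GDX first and XY Te Intact and XY Ov Intact last. Abca1 had the 4 GDX groups above the 4 Intact groups, with XX Te Intact leading the latter. Neighbouring groups overlapped in every order except at 1 step, between XX Te Intact and XX Te GDX for Nr1h3.

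The other genes of the pathway were counted in lists drawn up by role. Their counts are to be read beside the shares of all genes past the threshold, 25.3% for the gonadal effect, 10.7% and 34.3% for the chromosomal effect in Intact and GDX mice, 69.4% for ovariectomy and 63.3% for castration. RXR partners and coregulators numbered 10, all tested. In the gonadal effect 4 were past the threshold, Rxrg higher with ovaries (0.53 log2 units) and 3 higher with testes, among them the main liver RXR, Rxra (-0.33). None was past it between XX and XY Intact mice, and 2 were after GDX, the demethylase Kdm1a (0.14) and the coactivator Ncoa3 (-0.55). After ovariectomy 9 of 10 passed (all genes 69.4%), 7 of them higher, among them the corepressor Ncor1 (0.69), with Rxrg (-0.26) and Rxrb (-0.20) lower. After castration 4 were higher, led by Ncoa3 (0.54).

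Lipogenic LXR targets, 7 genes of fatty acid synthesis and its control, had no member past the threshold between XX and XY mice, Intact or GDX. In the gonadal effect 2 passed, Pnpla3, a lipase-like protein of lipid droplets (1.73 log2 units higher with ovaries), and Mlxipl, the glucose-sensing factor ChREBP (-0.28). After ovariectomy 5 of 7 were higher, a share near the 69.4% of all genes past the threshold in either direction, led by Fasn (1.37) and Acaca (1.04), the synthase and the carboxylase of fatty acid synthesis. After castration 4 were higher and 1 lower (all genes 63.3%), with Pnpla3 at 1.73, Acaca at 0.85 and the desaturase Scd1 at -1.07. The lists' median changes were 0.43 and 0.54 log2 units, against 0.06 and 0.07 over all genes.

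Lipoprotein LXR targets numbered 10. After GDX 7 of 10 passed between XX and XY mice (all genes 34.3%), 2 higher in XX, among them Apoe (0.37 log2 units), and 5 higher in XY, led by Arl4c (-1.53), a small GTPase, and Lpl (-1.45), lipoprotein lipase. Both were in the direction of Abcg1, and the list median was -0.32 log2 units beside 0.08 over all genes. In Intact mice 2 passed, Apoe (0.26) and Arl4c (-0.81). In the gonadal effect 4 passed, with Cyp7a1, the first enzyme of bile acid synthesis, at 1.54 and Arl4c at 0.65 higher with ovaries, and Apoe at -0.32. The castration and ovariectomy effects each had 5 of 10 past the threshold, below the shares of all genes, with Apoc1 lowest in both (-1.42 and -1.88) and followed by Smpdl3a (-0.48 and -0.98). Abca7, a relative of Abca1, was higher in both (0.83 and 0.93), Arl4c was higher after castration (0.90) and Apoe after ovariectomy (0.37). The effects differed for Cyp7a1 by 1.62.

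Oxysterol enzymes make or remove the ligands of LXR, and 4 of 7 were tested, Ch25h, Hsd3b7 and Sult2b1 having too few reads. Cyp7b1 and Cyp27a1, the oxysterol 7α-hydroxylase and sterol 27-hydroxylase, were higher with testes in Intact mice (-2.38 and -0.53 log2 units). Both were lower after castration (-2.40 and -0.20), and Cyp46a1 was higher after either operation (1.38 and 1.01, ovariectomy first). Between XX and XY mice none passed in Intact mice and Cyp46a1 alone after GDX (0.84). For both Cyp7b1 (-1.62) and Cyp27a1 (-0.46) castration and ovariectomy differed.

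Of 11 tested genes of sterol uptake and handling, 5 passed between XX and XY mice after GDX, with Abcb4, the phospholipid transporter of bile (0.53 log2 units), among those higher in XX, and Soat1, which esterifies cholesterol (-1.50), and Lrp8 (-1.42) higher in XY. In Intact mice 3 passed, among them Abcb4 (0.41) and Soat1 (-0.75). In the gonadal effect 5 passed, with Vldlr (0.98) and Npc2 (0.70) higher with ovaries and Abcb4 (-0.46) and Scarb1 (-0.24) higher with testes. After ovariectomy 4 passed, with the lysosomal cholesterol carriers Npc1 higher (0.54) and Npc2 lower (-1.14). After castration 5 passed, led by Lrp8 (1.07) and Vldlr (0.86), with Npc2 lower (-0.50). Castration and ovariectomy differed for Vldlr (0.99) and Abcb4 (-0.63).

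Relatives of the members had 6 of 9 past the threshold between XX and XY mice after GDX, with Abcg2 (0.74) and the bile acid receptor Nr1h4 (0.30) higher in XX and Lpcat4 (-2.12) and Abcg3 (-1.96) higher in XY. In Intact mice 3 passed, all higher in XY, among them Lpcat4 (-1.25) and Abcg3 (-0.98). In the gonadal effect 6 of 9 passed, with Abcg3 (0.99) and Lpcat4 (0.95) higher with ovaries and Abcg2 (-1.09) and Abca2 (-0.57) higher with testes. After ovariectomy 5 of 9 passed (all genes 69.4%), with Abca2 (0.87) and Nr1h5 (0.84) higher and Abcg2 (-0.29) lower, and after castration 8 of 9 (all genes 63.3%), with Lpcat4 (1.46) and Nr1h5 (1.16) higher and Abcg2 (-1.25) lower. No pathway list had a gene past the threshold for the former gonad.

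Members were compared in pairs within groups, over 24 Intact and 24 GDX mice, as correlations of log2 CPM after subtracting group means. Of 56 pairs, 17 had an adjusted p under 0.05 (permutation test, Benjamini-Hochberg over the 56), 12 in Intact and 5 in GDX mice. Abcg5 and Abcg8, which share the DNA printed above, were the closest pair after GDX, with r = 0.956 and rho = 0.957 (permutation p = 1e-05, adjusted p = 0.000187) and r = 0.931 without the 2 mice farthest from the median. In Intact mice the pair had r = 0.775 and rho = 0.742 (permutation test, adjusted p = 0.00048). With the length measure removed the values were 0.948 and 0.907. The part of the overlapping exons in these values was not tested.

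Nr1h3 and Abca1 were opposed in Intact mice, with r = -0.916 and rho = -0.945 (permutation p = 1e-05, adjusted p = 0.000187) and r = -0.900 without the 2 farthest mice. Nr1h3 was also opposed to Nr1h2 (r = -0.853), Lpcat3 (-0.856) and Abcg8 (-0.811). These members follow the length measure, and with it removed 7 pairs were past the threshold, 3 in Intact mice: Abcg5 with Abcg8, Abcg1 with Mylip (r = 0.639) and Abca1 with Abcg8 (0.590). In GDX mice Nr1h3 with Lpcat3 had r = -0.679 (rho = -0.503), which was -0.390 without the 2 farthest mice and so rests on them. Nr1h3 with Abcg8 had -0.668 there (-0.487 without 2 mice), and Abca1 had 0.729 with Abcg5 and 0.611 with Abcg8. With the length measure removed in GDX mice, Nr1h3 with Abcg8 (adjusted p = 0.0879) and Abca1 with Abcg8 (adjusted p = 0.0823, permutation test) were no longer past the threshold, Nr1h3 with Abcg1 was (r = 0.617, adjusted p = 0.0235), and Abcg5 with Abcg8, Abca1 with Abcg5 (0.675) and Nr1h3 with Lpcat3 (-0.686) stayed past it. Mylip followed the summed endothelial markers within GDX groups, with r = 0.933 and rho = 0.910 (permutation test, adjusted p = 0.000187) and 0.910 without the 2 farthest mice, and r = 0.418 in Intact mice (adjusted p = 0.145). Within GDX groups Mylip also followed the length measure (r = 0.720), and its relation to the markers was not computed with that measure removed.

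**Figure D5:**
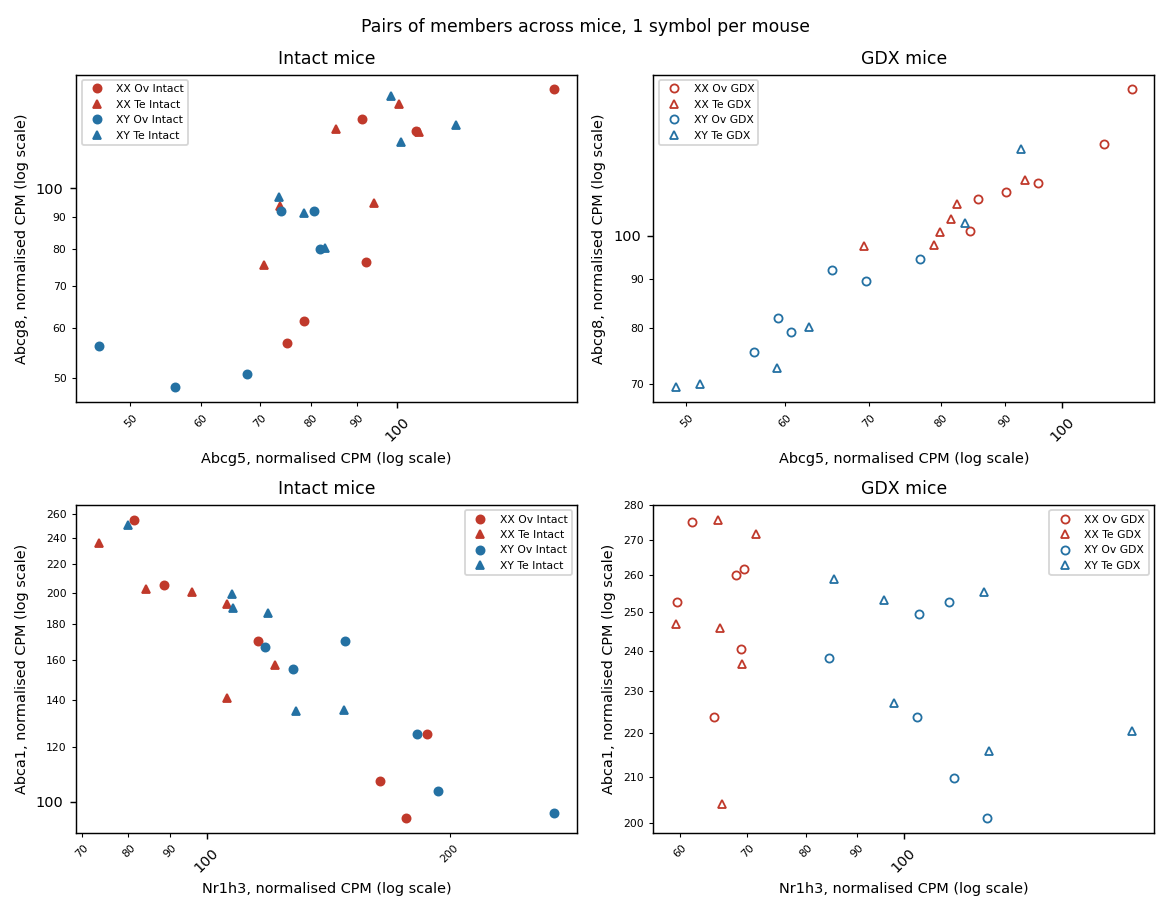
Abcg8 against Abcg5 (top) and Abca1 against Nr1h3 (bottom) in CPM on log axes, group means not subtracted, Intact mice left and GDX mice right, 1 point per mouse (red XX, blue XY, circles Ov, triangles Te, filled Intact, open GDX). Abcg5 and Abcg8 rise together in Intact and GDX mice (r after subtracting group means 0.775 and 0.956), and Nr1h3 and Abca1 are opposed in Intact mice (r = -0.916).

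The genes most alike each member were sought over 48 mice by the correlation of group-centred log2 CPM among 11434 genes, as a description without a test. Abcg1 was most like Iqgap1 (r = 0.947) and Msn (0.945), and Mylip most like the water channel gene Aqp1 (0.818) and the clotting factor gene F8 (0.7996). Abcg5 was most like Abcg8 (0.807) and Slc38a2 (0.798), and Abcg8 most like Magi3 (0.861) and Hnf4a (0.810). Nr1h3 was most like Rap1b (0.935) and Rab32 (0.915), Nr1h2 like Wbp7 (0.912) and Zfp592 (0.908), Abca1 like Prrc2c (0.942) and Bptf (0.927), and Lpcat3 like Dag1 (0.902) and Adcy6 (0.900). The likeness of Nr1h2 and Lpcat3 was mainly that of Intact mice. For Nr1h2, r in Intact and GDX mice was 0.954 and 0.182 with Wbp7, and 0.957 and 0.0593 with Zfp592. For Lpcat3 it was 0.95 and 0.504 with Dag1, and 0.956 and 0.431 with Adcy6. For the other members no r fell below 0.612, that of Mylip with F8 in Intact mice. All values of a mouse come from 1 library.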

How the data were processed

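RNA-seq counts of liver from 48 mice, 1 library each, were analysed. The authors aligned reads to GRCm39 and deposited raw counts per gene. The submitters' processing notes name STAR 2.7.10a and DESeq2 1.36.0, and the strand setting and annotation are not given in the sources used here. Of 55414 genes, 31020 (56.0%) were paired with a symbol, and 4 summary lines were left out. Groups were taken from the labels.

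Genes passing edgeR's expression filter (15414) were fitted over all 48 mice with 8 group means by edgeR 4.0.16 in R 4.3.3 (TMM, robust quasi-likelihood test, Benjamini-Hochberg over all tested genes, adjusted p under 0.05). The p-values weigh differences of group means against the spread between mice. Comparisons that share mice are not independent. DESeq2 1.42.0 and 1 surrogate variable (sva 3.50.0) were alternatives, as were other scalings and filters, 47 mice (without 1 XX Te Intact mouse whose Pnpla3 value the study omits) and each mouse left out. The length measure, computed for 89.8% of tested genes from NCBIM37 gene models, was added after seeing the data. Correlations and sequence searches used Python 3.11.15, numpy 2.4.6, pandas 2.3.3 and scipy 1.17.1, and figures matplotlib 3.10.9. The fit was tested on simulated counts.

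The 8 genes and the lists were chosen with earlier results of these data known. All members are named. Of each list, the counts past the threshold are given with up to 2 highest and 2 lowest such genes (some of these are not reported here), and the 2 genes most alike each member are drawn from those whose log2 CPM averaged 1 or more. Intervals are 2 SE of the edgeR fit and give the uncertainty of a difference of group means, estimated from the spread between mice. The limit of 3 reads covers counting error only.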

Additional observations from a re-analysis of the deposited data

Results flagged for a closer look

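In a test for single mice far from their group (Dixon's ratio, groups of 6), 1 of 64 combinations of gene and group stood out, Mylip in XY Ov Intact mice, where the highest mouse had 22.2 CPM and the other 5 lay between 17.8 and 18.8 CPM. Chance gives about 1 in 20 such groups.

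The effects of castration and ovariectomy on Nr1h3 differed by 0.60 log2 units (castration minus ovariectomy), by a test of the difference itself (adjusted p = 0.0363, edgeR). The effects of XX against XY chromosomes on Abcg1 differed between GDX and Intact mice by -1.004 log2 units (adjusted p = 0.0437, edgeR). With the length measure as a covariate the Nr1h3 difference was 0.33 (adjusted p = 0.0547) and that of Abcg1 -0.93 (adjusted p = 0.0381, edgeR). The macrophage marker Csf1r had a difference of the same kind as Abcg1 (-1.11), and its part in the Abcg1 value was not tested. How many of the 11 macrophage markers had such a difference is not reported here. Among all genes 2.12% were past the threshold for it.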

How the results depend on the processing

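No paired analysis was possible because the mice carry only their own identifiers and no number shared across groups. Over alternatives other than leaving out mice, 783 of 856 member log2 fold changes kept their direction and side of the threshold, and 6 reversed; with each mouse left out it was 3750 of 3840 with none reversed. Numbers of members past the threshold changed as follows. At adjusted p under 0.01 they were 1 for the gonadal effect, 1 for the chromosomal effect in Intact mice, 3 for castration, and 0 for the difference between castration and ovariectomy and for the interaction of chromosomes with GDX. With library totals they were 1, 1, 3 after GDX and 2 for that interaction. With no filter beyond 1 count both the difference and the interaction had 0. With the compared arms alone the gonadal and the Intact chromosomal effect had 1 each. With 1 surrogate variable ovariectomy and castration had 3 each, the difference 0 and the interaction 2. With the length measure as a covariate ovariectomy had 0, the difference 0 and the interaction 2. Without the 4 Intact mice of low length measure (44 mice left) the gonadal effect had 0, the difference 0 and the interaction 2.

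With each mouse left out the number ranged from 1 to 4 for the gonadal effect, 0 to 0 for the former gonad, 5 to 6 for the chromosomal effect over all mice, 2 to 2 in Intact and 4 to 6 in GDX mice, 5 to 7 for ovariectomy, 4 to 6 for castration, 0 to 1 for their difference, 0 to 2 for the chromosome interaction and 0 to 0 for the gonad interaction. The interaction of Abcg1 (-0.87 to -1.16) was not past the threshold (edgeR, adjusted p up to 0.101) without XX Ov Intact 4 or 5, XX Te Intact 1 or 2, XY Ov Intact 1, 3 or 5, XY Te Intact 2 or 4, XX Ov GDX 1, 2 or 4, XX Te GDX 2, 4 or 5, XY Ov GDX 2, 4, 5 or 6, or XY Te GDX 1, 2 or 3. The difference for Nr1h3 (up to 0.0903) was lost without XX Ov Intact 1, 2 or 6, XX Te Intact 1 or 6, XY Ov Intact 5 or 6, XY Te Intact 4 or 5, XX Ov GDX 4, XY Ov GDX 1 or XY Te GDX 1. Its castration call (up to 0.0943) was lost without XX Te Intact 2, 3, 4 or 5, XY Te Intact 1 or 3, XX Te GDX 1, 2, 3 or 6, or XY Te GDX 3, 4, 5 or 6. The gonadal call of Abca1 (up to 0.0860) was lost without XX Ov Intact 1 or 2, XX Te Intact 1, 3 or 6, XY Ov Intact 4 or 5, or XY Te Intact 2, 4 or 5, and that of Abcg8 (up to 0.0635) without XX Ov Intact 1 or 2, XX Te Intact 1 or 6, XY Ov Intact 5 or XY Te Intact 5. The GDX chromosomal call of Abcg8 was lost without XX Ov Intact 6, XY Ov Intact 6, XY Te Intact 3, XX Ov GDX 6, XY Ov GDX 5 or XY Te GDX 1, 2 or 3.

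With the length covariate the ovariectomy effect reversed for Nr1h2 (-0.14) and Lpcat3 (-0.11), and the castration effect for Nr1h2 (-0.021), Nr1h3 (0.23), Abca1 (-0.10) and Lpcat3 (-0.23). With the length measure removed, 7 pairs passed and the Intact correlations reversed for Nr1h2 with Abca1 (-0.25) and Abcg8 (-0.072), and for Lpcat3 with Abca1 (-0.28) and Abcg8 (-0.18). The cause of the other changes was not tested. Under library totals the median of all genes moved to 0.27 log2 units for both operations. On the longest transcript Nr1h2 was at 11.5 and Lpcat3 at 36.1 CPM per kb. Among all 15414 genes, the count past the threshold fell from 3907 to 1694 for the gonadal effect and from 1648 to 819 for the Intact chromosomal effect with the compared arms alone, and rose from 14 to 33 for the former gonad. With the length covariate it was 2459 against 10695 for ovariectomy, 5972 against 9759 for castration, 2772 against 1648 for the Intact chromosomal effect and 610 against 327 for the chromosome interaction. With 1 surrogate variable ovariectomy had 6319 and the Intact chromosomal effect 2640. Without the 4 mice the gonadal effect had 2292. At 10 or more counts in every mouse, which tests fewer genes, it was 7 for the former gonad, and 940 and 3491 for the chromosomal effect in Intact and GDX mice. For the chromosome interaction library totals gave 545 and DESeq2 661, and with no filter the castration and ovariectomy difference had 506 against 863. At adjusted p under 0.01 the gonadal effect had 1920, the Intact chromosomal effect 934, the difference 323 and the interaction 28.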
